A study of Rattus norvegicus with 8 samples.

Results

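Elastin and the collagens and associated proteins of the dermal matrix were followed in wounded and unwounded skin of rat pups through 8 genes: Col1a1 (ENSRNOG00000003897), Col1a2 (ENSRNOG00000011292), Col3a1 (ENSRNOG00000003357), Sparc (ENSRNOG00000012840), Fn1 (ENSRNOG00000014288), Dcn (ENSRNOG00000004554), Lox (ENSRNOG00000014426) and Eln (ENSRNOG00000001469). They were chosen as matrix genes by Ensembl ID, and every probe that the array names by one of these IDs was taken. This gave 20 probes of the 38948 on the array. All 20 were found by the scanner software on 8 of 8 arrays, so none was lost to the filter on dim spots, and each gene had 2 or 3 probes, called probe 1, 2 and 3 here in order of falling signal.

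The wounded group comprised 4 skin samples of Long-Evans rat pups that had received a 3-mm incision on the back at 3 days of age, with skin taken at the incision 36 h later. The control group comprised 4 skin samples from the matching place on Long-Evans pups that had not been cut. Age was recorded here only for the wounded group, and no animal is described as genetically altered or as given chemotherapy. Whether the 4 samples of a group are 4 animals is not stated, and a p-value here reflects only how much these samples vary, part of which may be technical.

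The dermis owes its tensile strength to fibrils of type I collagen, a triple helix built from the chains that Col1a1 and Col1a2 encode, mixed with type III collagen, which is built from the chain that Col3a1 encodes. Decorin, the small leucine-rich proteoglycan encoded by Dcn, coats these fibrils, and SPARC is a secreted glycoprotein that binds collagen. Fibronectin, encoded by Fn1, forms part of the provisional matrix on which cells enter a wound. Elastin, encoded by Eln, gives skin its recoil, and lysyl oxidase, encoded by Lox, starts the cross-linking of both collagen and elastin.

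The array files hold no oligonucleotide sequences. RefSeq promoter sequences (GRCr8, from 250 bases before to 50 bases after the annotated start of the gene) were at hand for 2 of the 8 genes, Col1a2 and Sparc. These 2 are shown because no promoter sequence was at hand for the other genes. Col1a2 encodes a collagen chain and Sparc a collagen-binding protein. Each reads 5′ to 3′ on the strand of the gene, and capitals mark every match, on either strand, to 3 strings. The first, TATAAA, is called the TATA string here. The second is the CCAAT string, and the third, GGAGG, is called the purine string.
Col1a2, chr4:33518307-33518606, plus strand: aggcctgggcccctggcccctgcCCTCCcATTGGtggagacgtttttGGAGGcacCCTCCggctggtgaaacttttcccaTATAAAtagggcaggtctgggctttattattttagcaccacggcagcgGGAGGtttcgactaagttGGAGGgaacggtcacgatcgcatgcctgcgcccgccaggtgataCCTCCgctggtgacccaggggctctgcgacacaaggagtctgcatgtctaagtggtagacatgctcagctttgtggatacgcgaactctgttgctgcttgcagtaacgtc
Sparc, chr10:40038767-40039066, minus strand: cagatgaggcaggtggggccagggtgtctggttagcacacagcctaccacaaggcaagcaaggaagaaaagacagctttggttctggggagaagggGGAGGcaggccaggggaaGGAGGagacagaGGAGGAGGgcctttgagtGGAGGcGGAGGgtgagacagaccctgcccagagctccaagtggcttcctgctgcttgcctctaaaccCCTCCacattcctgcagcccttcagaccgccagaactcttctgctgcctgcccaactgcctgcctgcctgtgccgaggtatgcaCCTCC
The Col1a2 window holds 1 match to the TATA string, 1 to the CCAAT string and 6 to the purine string. The Sparc window holds 8 matches to the purine string, some of which overlap each other, and 0 to the TATA and CCAAT strings. Searches for the GC string GGGCGG and for the AP-1 type string TGANTCA found 0 matches in both windows. Among 33469 promoters of the same length, 14.2% hold the TATA string, 37.5% the CCAAT string, 71.1% the purine string, 33.1% the GC string and 7.3% the AP-1 type string, so the purine string is common. A match describes letters in the window and is not a measured binding site.

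Eln fell in wounded skin, and all 3 of its probes showed it. Probe 1 had background-subtracted intensities of 8782, 4383, 5894 and 7621 in controls 1 to 4 and of 2797, 2352, 3432 and 3598 in wounded samples 1 to 4, before any scaling between arrays. Each wounded value lay below each control value even on this unscaled measure. Quantile normalization put the control group at a log2 signal of 12.79 ± 0.09 (SD, n = 4) and the wounded group at 11.48 ± 0.40 (SD, n = 4). The difference of -1.31 ± 0.21 (SE) on the log2 scale makes Eln 2.48-fold lower (limma adjusted p = 0.000227 over 12769 features). The 95% interval of the log2 fold change ran from -1.76 to -0.86, and all 4 wounded samples lay below the control mean. Only 117 of the tested features had a lower log2 fold change. Fewer elastin-producing cells in the specimen and less Eln RNA per cell cannot be told apart in skin RNA of this kind.

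The other Eln probes, read at separate spots of the same arrays, gave similar sizes. Probe 2 had intensities of 3106, 1544, 1530 and 2958 in controls and of 722, 788, 1073 and 1203 in wounded samples, a log2 fold change of -1.35 ± 0.25 (SE) with a limma adjusted p of 0.000806 over the 19444 probes tested. Probe 3, a dim probe, had 199, 210, 196 and 258 in controls and 88, 90, 53 and 106 in wounded samples, a log2 fold change of -1.03 ± 0.20 (SE) with a limma adjusted p of 0.00117. The groups did not overlap for either probe, before or after normalization. Among the wounded samples, replicates 1 and 2 were the lowest for probes 1 and 2, with log2 signals of 11.28 and 11.02 for probe 1 against 11.71 and 11.90 in replicates 3 and 4. Eln passed the test in all 23 alternative settings, with log2 fold changes between -1.45 and -1.10.

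**Figure D1:**
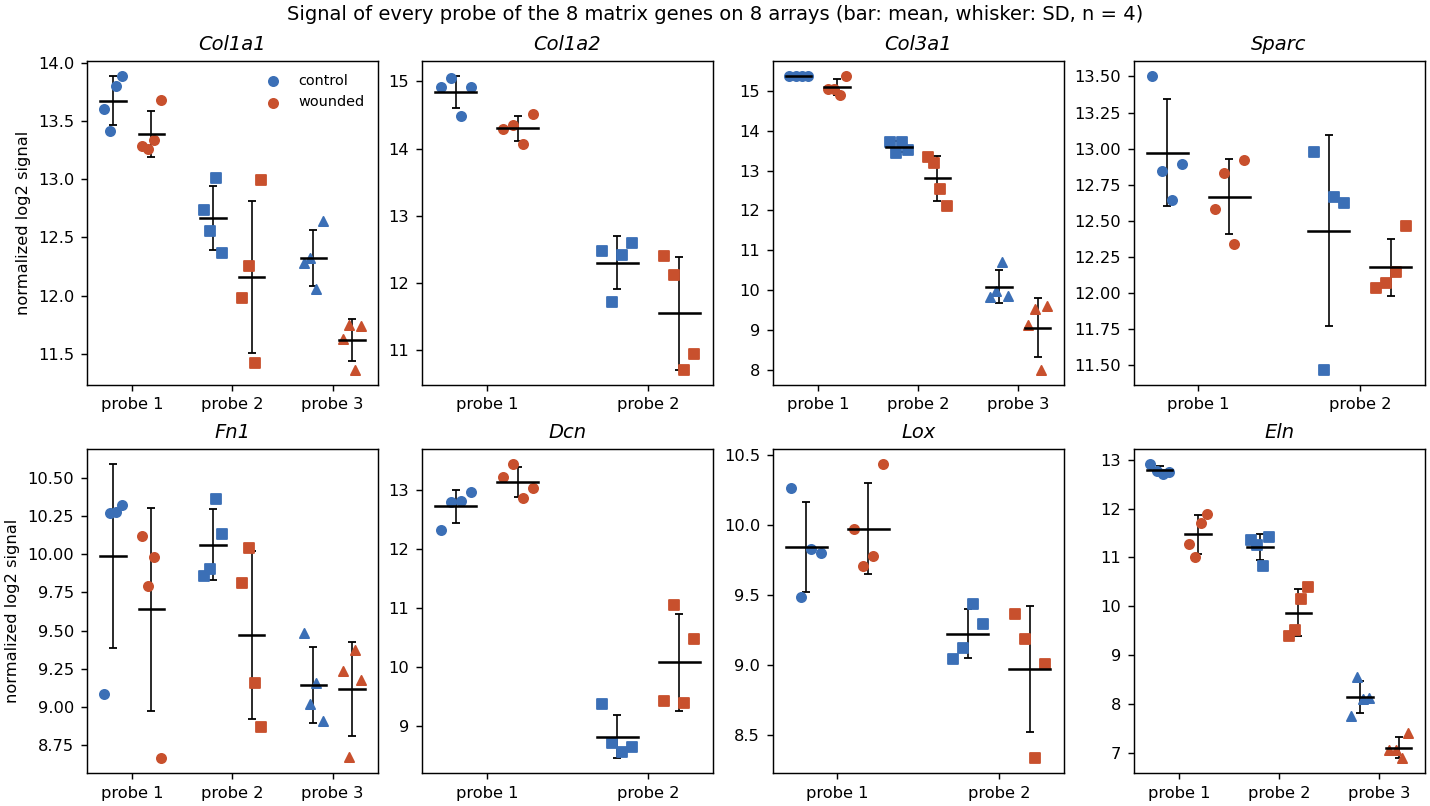
Normalized log2 signal (vertical axis, scaled separately in each panel) of each probe of the 8 matrix genes in 4 control and 4 wounded samples. Points are arrays in order of replicate number, bars are group means and whiskers are SDs, and levels of different probes are not comparable. The wounded values lie below every control value for 6 probes, the 3 of Eln, probe 3 of Col1a1 and probes 2 and 3 of Col3a1, and above every control value for probe 2 of Dcn.

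By their brightest probes, the genes of the collagen fibril showed smaller changes than Eln. Col3a1 probe 3, at -1.02, came near Eln probe 3, at -1.03. Some collagen probes passed the test while others did not. All 8 probes of Col1a1, Col1a2 and Col3a1 had negative log2 fold changes, between -1.02 and -0.28, and 4 of the 8 fell by the limma test over all probes. Over all tested probes, 8.53% passed as lower. For 3 of the 8 the groups did not overlap after normalization, with wounded skin lower, against 11.3% of all probes. When the 5 dimmer collagen probes were each set against probe 1 of their gene, no difference in response passed (2-sided exact permutation test, lowest p 0.0857, adjusted 0.513 over 12 pairs). The smallest p that this test can give is 0.0286, which left little room to pass after adjustment over 12 pairs. The result therefore does not show that probes of a gene agree. The 4 calls held with cyclic loess, with limma adjusted p of 0.0248 to 0.0478. They were lost when arrays were scaled by their medians or with the authors' deposited values, although all 8 log2 fold changes stayed negative. With the authors' deposited values the 4 probes stood at -1.01 to -0.50 with limma adjusted p of 0.0585 to 0.115, and with median scaling at -0.89 to -0.48 with limma adjusted p of 0.0974 to 0.223. Leaving out wounded 3 also ended all 4 collagen calls, and leaving out control 4 left 1, that of Col3a1 probe 3.

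For Col1a1, which encodes the more abundant chain of type I collagen, probe 1 had intensities of 14348, 7448, 13201 and 16653 in controls and of 11352, 11045, 10736 and 12736 in wounded samples. The groups overlapped. The log2 fold change of this probe was -0.28 ± 0.19 (SE) (limma adjusted p = 0.338 in the fit over features). Its 95% interval of -0.68 to 0.11 includes both no change and a fall. In the fit over probes, probe 2 gave -0.50 (limma adjusted p = 0.234). Probe 3 fell by 0.71 ± 0.20 (SE) on the log2 scale (limma adjusted p = 0.0218), with normalized log2 signals of 12.28, 12.32, 12.06 and 12.64 in controls against 11.63, 11.75, 11.36 and 11.74 in wounded samples, which did not overlap. Before scaling the groups overlapped, with 5825, 3181, 3679 and 7174 in controls and 3602, 3943, 2624 and 3195 in wounded samples. With median scaling the limma adjusted p of probe 3 was 0.223.

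Col1a2 lay at the threshold. Its probe 1 had intensities of 32777, 27493, 22287 and 32499 in controls and of 20908, 22343, 17326 and 22618 in wounded samples. Wounded 2 and wounded 4 reached slightly above control 3, the dimmest control for this probe, and the other wounded samples lay below every control. The log2 fold change was -0.53 ± 0.18 (SE), or 1.45-fold lower, and all 4 wounded samples lay below the control mean. Its limma adjusted p was 0.0509 in the fit over features and 0.0475 in the fit over probes, on either side of the threshold, and the fits differed in their moderated error as well as in the number of rows adjusted over. It passed in 9 of 23 alternative settings. Probe 2 split the wounded group, with 6195 and 5338 in wounded 1 and 2 and 1643 and 1827 in wounded 3 and 4, against 6641, 2121, 4565 and 6800 in controls, and gave -0.75 ± 0.33 (SE) with a limma adjusted p of 0.129.

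For Col3a1, which encodes type III collagen, probe 1 was among the 3 brightest spots of every array, with intensities of 48730, 27903, 44719 and 49537 in controls and of 38006, 37605, 33472 and 38306 in wounded samples. Quantile normalization gives the brightest spot of every array the same value, and this probe had a log2 signal of 15.38 on all 4 control arrays and on wounded 4. Its log2 fold change of -0.29 ± 0.16 (SE), with a limma adjusted p of 0.258, is therefore set partly by rank. With median scaling, which does not set values by rank, it was -0.20. With the authors' deposited values it was -0.22 and with cyclic loess -0.40. Probes 2 and 3, away from the rank ceiling, fell by 0.79 ± 0.24 (SE) and 1.02 ± 0.31 (SE) on the log2 scale. Their limma adjusted p were 0.0292 and 0.0285. Probe 2 had normalized log2 signals of 13.72, 13.44, 13.72 and 13.51 in controls and of 13.34, 13.20, 12.55 and 12.13 in wounded samples, which did not overlap and were lowest in wounded 3 and 4. Probe 3 had 9.82, 9.98, 10.70 and 9.85 in controls and 9.13, 9.52, 7.99 and 9.61 in wounded samples, again without overlap. Before scaling the groups overlapped for both probes. Control 2, the dimmest array, had 7585 for probe 2, where wounded 1 and 2 had 11743 and 10730. For probe 3 control 2 had 609, where wounded 2 and 4 had 782 and 680. Taken as the mean of its 3 probes, Col3a1 fell by 0.70 on the log2 scale with a limma adjusted p of 0.0209.

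**Figure D2:**
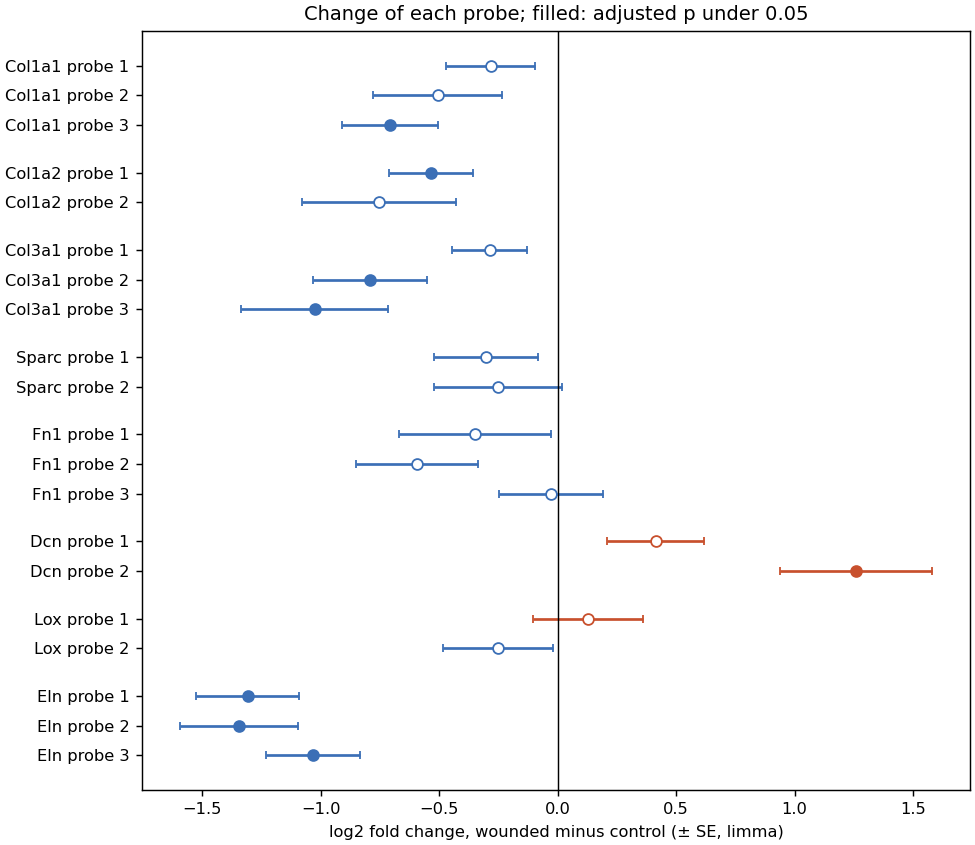
Log2 fold change, wounded minus control, of each of the 20 probes (horizontal axis, points with SE from limma), grouped by gene. Filled points passed an adjusted p of 0.05 over all probes: 7 lie below 0, 3 of them for Eln and 4 for collagens, and 1 lies above 0, for Dcn.

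Dcn went the other way. Its probe 2 rose, from intensities of 734, 238, 291 and 397 in controls to 741, 2408, 602 and 1295 in wounded samples, with wounded 2 and wounded 4 the highest. Before scaling, wounded 3 lay below control 1. After normalization the log2 signals were 9.37, 8.72, 8.57 and 8.65 in controls and 9.43, 11.05, 9.39 and 10.48 in wounded samples, with no overlap. The log2 fold change was 1.26 ± 0.32 (SE), or 2.39-fold higher, with a limma adjusted p of 0.0102, and all 4 wounded samples lay above the control mean. This probe passed in 22 of 22 alternative settings. Over all tested probes, 8.09% passed as higher and 8.98% had wounded values above every control.

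Probe 1 of Dcn, the brighter one, showed a smaller difference that did not pass. Its intensities were 6031, 4465, 6276 and 8809 in controls and 10804, 12692, 7762 and 7836 in wounded samples. The wounded values were above every control except control 4, which exceeded wounded 3 and 4. Its log2 fold change was 0.41 ± 0.20 (SE) with a 95% interval of -0.01 to 0.84 and a limma adjusted p of 0.181. The mean of both probes rose by 0.84 on the log2 scale, with a limma adjusted p of 0.0182. The log2 fold changes of the probes differed by 0.85 ± 0.47 (SE), the signal of probe 2 relative to probe 1 being highest in wounded 2 and wounded 4 (2-sided exact permutation p = 0.143, adjusted 0.513 over 12 probe pairs). As for the collagen probes, the adjustment left little room to pass, so the adjusted value does not show that the 2 probes agree.

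Sparc, Fn1 and Lox had 7 probes between them, and 0 of the 7 passed the limma test. Over all tested probes 16.6% passed in either direction, so 0 of 7 does not by itself set these genes apart. Sparc probe 1 had intensities of 13438, 4600, 5599 and 8326 in controls and of 7042, 8353, 5362 and 7443 in wounded samples, so the unscaled wounded values lay inside the range of the controls, whose lowest value came from the dimmest array, control 2. After normalization wounded 1 and wounded 3, at log2 signals of 12.58 and 12.34, lay below every control, the lowest of which was 12.64, and all 4 wounded samples lay below the control mean. Its log2 fold change was -0.30 ± 0.22 (SE), 95% interval -0.76 to 0.15, with a limma adjusted p of 0.376. Probe 2 of Sparc gave -0.25 (limma adjusted p = 0.578). Without control 1, the brightest control, the log2 fold change of probe 1 was -0.13, and with median scaling it was -0.09.

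None of the 3 Fn1 probes passed. Probe 1 had log2 signals of 9.09, 10.27, 10.28 and 10.32 in controls and of 10.12, 9.79, 9.98 and 8.66 in wounded samples, with control 1 and wounded 4 each far below the rest of their group. These are the 2 samples whose title numbers lie outside the run that the other 6 share, and over all features their deviations from the group means correlated at 0.403. Within the run the wounded values of this probe lay below all controls, and outside it wounded 4 lay below control 1. Its log2 fold change was -0.35 ± 0.32 (SE), 95% interval -1.01 to 0.32, with a limma adjusted p of 0.495. It became -0.65 without control 1 (limma adjusted p = 0.139) and -0.03 without wounded 4 (limma adjusted p = 0.964), each of which leaves the other sample from outside the run in the fit. With both left out it was -0.33 (limma adjusted p = 0.268), and with both kept as a block it was -0.35 (limma adjusted p = 0.141). Probe 2 gave -0.59 (limma adjusted p = 0.129) and probe 3 gave -0.03 (limma adjusted p = 0.949).

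Lox probe 1 had intensities of 1438, 426, 763 and 941 in controls and of 1108, 908, 817 and 1251 in wounded samples, which overlapped. Its log2 fold change was 0.13 ± 0.23 (SE), 95% interval -0.34 to 0.60, with a limma adjusted p of 0.743. Probe 2 had the opposite sign, at -0.25 (limma adjusted p = 0.513). The intervals of Sparc, Fn1 and Lox leave room for changes of moderate size in one direction, so these data do not show that the 3 genes were unaltered.

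Counted by the brightest probe of each gene, 1 of the 8 genes passed, as lower, and 0 were higher. Among all 12769 features 17.7% passed, 9.65% as lower and 8.01% as higher, 1232 and 1023 in number, and with median scaling 780 were lower and 972 higher. The groups did not overlap for 1 of the 8, Eln, with wounded skin lower, and for 0 with wounded skin higher, against 21% of all features, 12.3% lower and 8.77% higher. The median log2 fold change of the 8 genes was -0.29, against -0.05 for all features. Counted by probe, 8 of 20 passed, 7 lower and 1 higher, against 16.6% of all probes. Of the 20 probes, 17 had a negative log2 fold change, against 54.8% of all probes. After normalization the groups did not overlap for 7, against 20.3% of all probes. Probes of one gene share their transcript and all probes share the 8 arrays, so these counts are a description and not independent tests.

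Whether the genes differed from each other in response was examined by taking each gene's log2 signal minus that of Col1a1 on the same array, by their brightest probes. With 4 against 4 samples the smallest p that the exact test can give is 0.0286, and 7 differences were computed. Relative to Col1a1, Eln was lower by 1.03 ± 0.19 (SE) on the log2 scale in wounded skin, a difference between the groups of -1.03 with a 95% interval of -1.48 to -0.57. All 4 wounded samples lay below all 4 controls on this measure (2-sided exact permutation p = 0.0286, adjusted 0.2 over the 7 differences). Dcn was higher relative to Col1a1 by 0.70 ± 0.23 (SE), 95% interval 0.13 to 1.27 (2-sided exact permutation p = 0.0571, adjusted 0.2). Lox was higher by 0.41 ± 0.19 (SE), 95% interval -0.05 to 0.87 (2-sided exact permutation p = 0.0857, adjusted 0.2). The Col1a1 probe used as the reference changed least of its 3 probes. With the mean of each gene's probes the differences were -0.731 for Eln, 1.335 for Dcn and 0.436 for Lox. None of the 7 passed after adjustment, but a single difference at the smallest possible p adjusts to 0.2 over 7, so the design left little room for one to pass and the adjusted values say little about whether the genes differed.

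For the collagen chains the differences from Col1a1 were smaller and did not pass. Col3a1 and Col1a1 differed by -0.01 ± 0.12 (SE), 95% interval -0.29 to 0.28, although the rank ceiling of Col3a1 probe 1 bears on that value. The difference was -0.07 with median scaling, -0.065 with the authors' deposited values and -0.102 with cyclic loess. Col1a2 and Col1a1 differed by -0.25 ± 0.22 (SE), 95% interval -0.79 to 0.28 (2-sided exact permutation p = 0.343, adjusted 0.6). Sparc and Fn1 differed from Col1a1 by -0.02 and -0.07, with intervals of -0.67 to 0.63 and -1.34 to 1.2. In the profile over the 8 arrays, each gene centred on its own mean, Col3a1 was the closest of the 7 to Col1a1, with a root mean square difference of 0.143, and 80 other features of the array were closer. That profile is flattened by the same ceiling, since Col3a1 probe 1 has one value on 5 of the 8 arrays, so its rank among the 7 is uncertain. The 2 closest features were ENSRNOG00000007409 and ENSRNOG00000018655, with root mean square differences of 0.076 and 0.082, and the files give no gene names for them. The widest separation from Col1a1 was that of Fn1, 0.636, followed by Eln, 0.562. That of Fn1 owed much to the 2 samples outside the run of title numbers. Fn1 minus Col1a1 was -4.51 in control 1 and -5.02 in wounded 4, against -3.56 to -3.14 in the other samples.

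**Figure D3:**
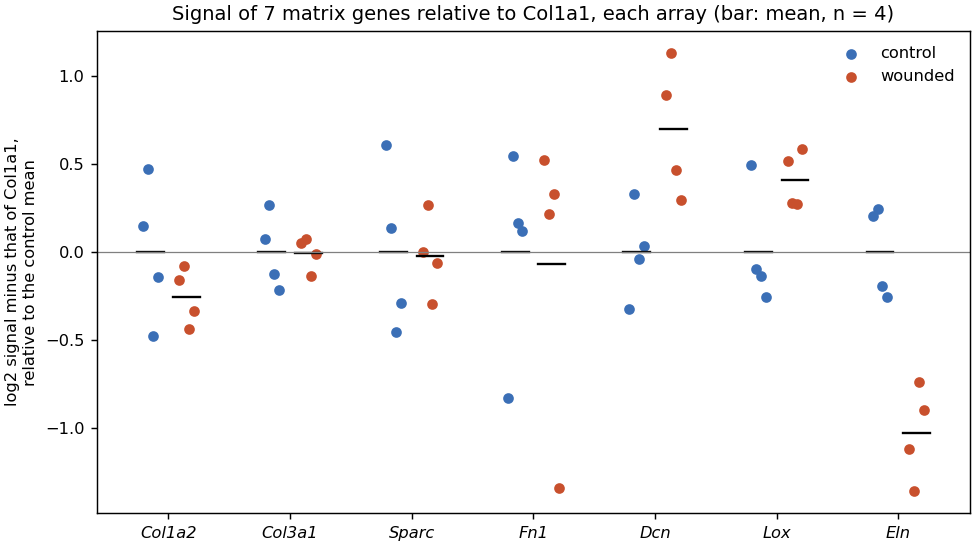
Log2 signal of 7 genes minus that of Col1a1 on the same array, drawn relative to the mean of the 4 controls (vertical axis). Points are arrays, black bars are group means. The wounded points of Eln lie below all its control points, 3 of the 4 of Dcn lie above all its controls, and those of Col3a1 and Sparc lie among the controls.

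The direction of each gene held under most other ways of processing the arrays. Between the lowest and the highest of 23 alternative settings, the log2 fold change of Col1a1 ran from -0.50 to -0.13, that of Col1a2 from -0.67 to -0.44, that of Col3a1 from -0.70 to -0.20 and that of Sparc from -0.41 to -0.09. Fn1 ran from -0.65 to -0.03, Dcn from 0.29 to 0.84 and Lox from -0.06 to 0.27. Lox was the only one of the 8 whose sign changed.

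**Figure D4:**
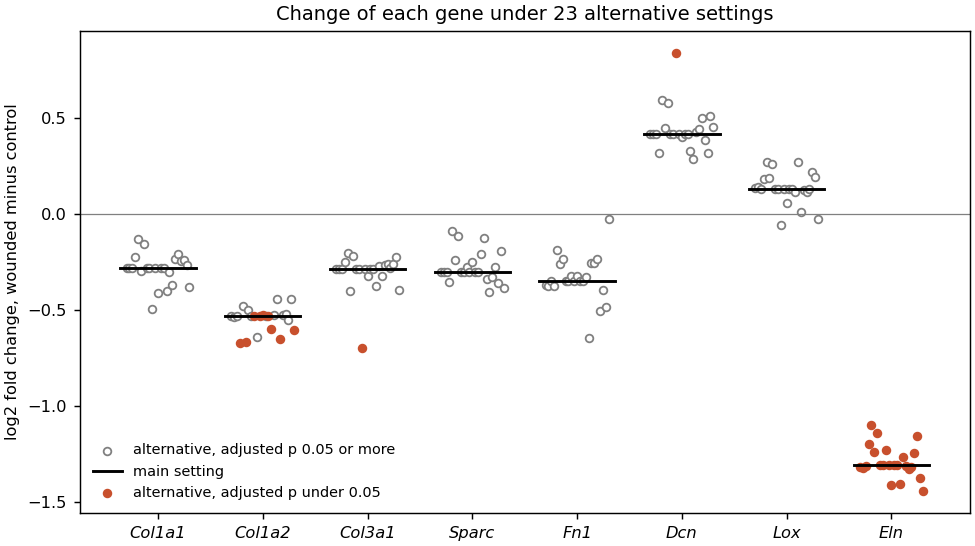
Log2 fold change, wounded minus control, of the 8 genes (vertical axis) under 23 alternative settings (points) and in the main setting (bars). Filled points passed a limma adjusted p of 0.05: all 23 for Eln, 9 for Col1a2, 1 for Col3a1 and 1 for Dcn.

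Between 16930 and 20030 probes per array were found, or 43.5% to 51.4%. Pearson r across features was 0.961 to 0.981 within the controls, 0.955 to 0.978 within the wounded samples and 0.883 to 0.936 between the groups, and features are not independent replicates. Control 2 was the dimmest array, with the fewest probes found, 16930, and its brightest spot at 27951 against 38351 to 49584 on the other arrays. Col3a1 probe 1 was the brightest on control 2, so that spot value is not separate from the matrix genes. Unscaled intensities of control 2 were low for most matrix genes, and the cause was not tested. The arrays were scanned in the order of the groups, controls first, so scan order and wounding cannot be told apart. Markers of skin cell types and of other cells could not be matched to the IDs of the array, so the cell make-up of the samples was not checked, and its part in these results was not tested.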

How the data were processed

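Total RNA of 8 skin samples was amplified to biotin-labelled cRNA and hybridised in one colour, per the labels. GenePix Pro 4.1.1.4 read the arrays at 635 nm and a gain of 650, and applied no normalization, per the file headers. The deposited scanner files hold linear intensity of each spot and its local background, and GenePix flags (other values) mark spots as found, not found or bad, per the file headers. The authors also deposited log2 values for 16079 probes. These equalled log2 of background-subtracted intensity plus a constant per array, within 0.02 for 99.9% to 100% of probes, with column medians of 6.96 to 7.05, so their scale and direction are settled and genes are not centred. How those probes were picked is not given in the sources.

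Median pixels were corrected with normexp (offset 50) in limma 3.58.1 (R 4.3.3), and control or unnamed spots (1240 of 40320) were dropped together with any spot that carried a bad flag. Log2 values were quantile normalized, spots of a probe averaged, and probes found on at least 4 of 8 arrays kept (19444). The brightest probe stood for each Ensembl ID, giving 12769 features. A second fit kept all probes. Both used limma (lmFit, eBayes with trend), 2-sided, with Benjamini-Hochberg adjustment over all features or all probes, and a threshold of 0.05. Differences relative to Col1a1 and between probes of one gene used 2-sided exact permutation tests, the latter added after the values were seen. With this offset, fold changes of dim probes come out smaller. The number of arrays limits the precision. The methods were tested on simulated data.

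All 8 genes are named, with up to 2 features closest in profile to Col1a1. Gene names come with the chosen list: of 46714 IDs and names on the array, 0 occur in the reference gene table (47357 rows), so the lists of other matrix genes and of cell type markers could not be matched and have no result. The members and lists were chosen with earlier results of these data known. Sample numbers were not treated as pairs, since deviations from the group means correlated at -0.28 to -0.01 between samples of equal number.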

Additional observations from a re-analysis of the deposited data

Results flagged for a closer look

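Control 1 was set apart for fibronectin: the log2 signal of Fn1 probe 1 was 9.09 there and 10.27 to 10.32 in controls 2 to 4. On the array level, 55 spots of wounded 1 carried a bad flag, where wounded 2 to 4 carried 2 to 3, and 0 of those spots belonged to the 8 matrix genes. Control 3 had a median background of 44, where the rest of the control group had 43. These are 3 of 48 groups of 4 values examined, and chance alone singles out about 1 in 20 when values are independent and normally distributed. Backgrounds and bad-spot counts are whole numbers with ties, and the groups share the same arrays, so that rate is only a rough guide here.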

How the results depend on the processing

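In 23 alternative settings Eln stayed lower and past the threshold, with limma adjusted p up to 0.00714, and in 22 settings so did its 3 probes and, as higher, Dcn probe 2. Col1a2 passed as a second lower gene, making 2, with mean pixels (-0.67), cyclic loess (-0.67), no filter (-0.53), eBayes without trend (-0.53), array weights (-0.53), control 1 and wounded 4 as a block (-0.53) and the 6 arrays of the common run of title numbers (-0.60). Leaving out 1 sample gave 1 to 2 lower genes and -0.65 to -0.44 for Col1a2. With the mean of a gene's probes, 2 genes were lower and 1 higher, Col3a1 stood at -0.70, Dcn at 0.84 and Lox, reversed, at -0.061. Lox ran from -0.026 to 0.269 when 1 sample was left out, as did its probe 1, and it was negative only without wounded 4.

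Lower probes numbered 3 with median scaling, 3 with the authors' deposited values and 3 to 7 with 1 sample left out. Of all features, 780 were lower with median scaling and 625 higher among probes found on all 8 arrays. Leaving out 1 sample gave 795 to 1055 higher and 839 to 1278 lower features.

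Small differences changed sign. Fn1 probe 3 was 0.109 with median scaling, 0.048 with cyclic loess, 0.098 with the authors' deposited values, 0.067 in the common run and -0.113 to 0.119 with 1 sample left out. Sparc minus Col1a1 was 0.04 with median scaling, 0.056 with cyclic loess, 0.042 with the authors' deposited values, 0.22 with mean probes, 0.195 in the common run and -0.176 to 0.18 with 1 sample left out. Fn1 minus Col1a1 was 0.036 with cyclic loess, 0.174 with mean probes, 0.076 in the common run and -0.342 to 0.353 with 1 sample left out. Col3a1 minus Col1a1 was 0.028 in the common run and -0.053 to 0.051 with 1 sample left out. The cause was not tested.

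With sample number as a replicate block, 987 features were higher and 1079 lower, and 1 gene and 6 probes of the matrix genes were lower. Among these only Col1a2 probe 1 lost its call (limma adjusted p = 0.0662). Dim probes such as Eln probe 3 carry more background in their signal.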
